A study of Mus musculus with 9 samples.

Results

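The 9 genes described here, Cldn5, Cldn12, Ocln, Tjp1, F11r, Jam2, Jam3, Cdh5 and Nectin2, encode proteins of the tight and adherens junctions by which brain endothelial cells are sealed to each other. They were picked by gene symbol under a rule that uses no measured value, though with earlier results of these data known, and are 9 of the 54513 genes in the authors' table. All 9 were expressed well enough to be tested, among 18690 tested genes. Bulk RNA-seq of polyadenylated transcripts covered 9 libraries of tissue that the labels call hippocampal, 3 for each of 3 groups, with 3 mice per group in the study's design. Every group ate a high-fat diet over 12 weeks. The Trp group had the amino acid tryptophan added to that diet at 0.5% by weight, the IPA group was gavaged every day with indole-3-propionic acid at 100 mg per kg of body weight, and the HFD group had the high-fat diet alone. Indole-3-propionic acid is a tryptophan metabolite of gut bacteria. The labels give no strain, sex or age of the mice, and no group on ordinary chow was analysed here. The column codes of the table (HOB for Trp, HEB for IPA and WTB for HFD) are tied to the samples by the labels but not explained there, and the labels do not settle whether they stand for the diet groups or for something else, such as genotypes. The group names below are those of the labels, and values of single libraries are given in the order of replicates 1 to 3.

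Tight junctions are built from claudins and occludin, which span the membrane and meet their counterparts on the neighbouring cell, and from junctional adhesion molecules (JAMs), which are immunoglobulin proteins. ZO-1 anchors these proteins to actin inside the cell. Adherens junctions hold the cells together through cadherins, VE-cadherin in endothelium, and through nectins, which bind the scaffold afadin. Claudin-5 is the main claudin of the blood-brain barrier, and the barrier is the subject of the study. Of the 9 genes, Cldn5 and Cdh5 are largely endothelial in brain, whereas the others are also transcribed by other cells of the tissue. In bulk RNA, fewer cells of a type and less RNA per cell cannot be told apart.

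Promoter sequences are shown for Nectin2 and Cldn5, the members with the lowest fold changes in the IPA group, and for Tjp1, whose level was, unlike that of Cldn5, lower in libraries with more counts from GC-rich genes. They come from RefSeq (GRCm38.p6), whose promoter table matched 6 of the 9 genes, and run from 250 bases before to 50 bases after the annotated start, 5′ to 3′ on the gene's strand. Capitals mark GC boxes, the letters GGGCGG or their reverse complement CCGCCC.
Nectin2, chr7:19749524-19749823, minus strand: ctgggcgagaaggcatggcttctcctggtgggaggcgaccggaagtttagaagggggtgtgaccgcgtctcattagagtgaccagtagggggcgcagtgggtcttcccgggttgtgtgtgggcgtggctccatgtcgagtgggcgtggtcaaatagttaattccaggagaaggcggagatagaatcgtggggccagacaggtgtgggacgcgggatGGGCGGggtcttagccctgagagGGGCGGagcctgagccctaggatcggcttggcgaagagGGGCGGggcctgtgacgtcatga
Cldn5, chr16:18776597-18776896, plus strand: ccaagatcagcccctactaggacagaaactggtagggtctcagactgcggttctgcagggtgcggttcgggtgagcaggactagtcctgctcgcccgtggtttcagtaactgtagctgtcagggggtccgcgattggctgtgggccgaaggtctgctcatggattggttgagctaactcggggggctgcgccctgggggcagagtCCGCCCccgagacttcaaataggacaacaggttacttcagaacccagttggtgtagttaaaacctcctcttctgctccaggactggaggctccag
Tjp1, chr7:65371195-65371494, minus strand: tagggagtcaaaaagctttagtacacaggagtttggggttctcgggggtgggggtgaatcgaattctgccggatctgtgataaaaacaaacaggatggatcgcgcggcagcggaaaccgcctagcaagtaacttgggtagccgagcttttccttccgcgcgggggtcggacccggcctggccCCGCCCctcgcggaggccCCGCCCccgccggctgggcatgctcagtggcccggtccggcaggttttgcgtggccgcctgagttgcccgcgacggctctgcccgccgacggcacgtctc
The Nectin2 promoter held 3 GC boxes, the Tjp1 promoter 2 and the Cldn5 promoter 1. A GC box on either strand occurred in 35.7% of the 32851 promoters in the table. The GC content was 62.7% for Nectin2, 58.3% for Cldn5 and 65.3% for Tjp1, against a median of 52.7% over all promoters. None of the 3 held a TATA box (TATAAA, in 13.6% of promoters). The core letters bound by the aryl hydrocarbon receptor, a receptor known to respond to indoles, were searched as TNGCGTG on both strands, and occurred in the Tjp1 and Ocln promoters and in 5.07% of all promoters. These matches are descriptions of the letters in the window.

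Total counts ran from 40621084 to 50938746 per library. The endothelial marker Pecam1 was present in every library, at 17.3 to 20.7 CPM in Trp, 13.2 to 17.5 CPM in IPA and 17.7 to 19.1 CPM in HFD, where CPM divide each count by the library size after TMM adjustment. HFD 3 stood apart from the other HFD libraries, with the lowest striatal marker sum of all 9 libraries (803 CPM, against 1647 to 3445 CPM in the others, with the dopamine receptor gene Drd1 at 20.5 CPM) and the highest blood marker sum (2215 CPM, against 236 to 734 CPM in the others, with the globin gene Hba-a1 at 459 CPM). The oligodendrocyte marker sum was also highest in HFD 3 (15624 CPM, against 7828 to 10299 CPM in the others). So was the hippocampal neuron marker sum (531 CPM, against 293 to 440 CPM in the others). Choroid plexus markers differed widely within every group, most in Trp, from 39.6 CPM in Trp 3 to 1462 CPM in Trp 1. They ran from 313 to 1231 CPM in IPA and from 142 to 733 CPM in HFD. Results that change without HFD 3 or Trp 3 are given with and without them.

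Levels between genes were compared as FPKM, the authors' values per gene length and library depth. Jam3 (13.8 ± 1.93 FPKM, SD over the 9 libraries), Cldn5 (13.1 ± 3.49) and Cldn12 (12.5 ± 1.10) were highest, and their ranges overlapped. Jam2 (8.98 ± 0.52) and Tjp1 (8.04 ± 0.68) came next and overlapped each other and the lower end of Cldn5 (8.53 to 19.2 FPKM), but not Jam3 or Cldn12. F11r (2.04 ± 0.43), Nectin2 (1.85 ± 0.71), Ocln (1.79 ± 0.29) and Cdh5 (1.48 ± 0.25) were lowest, overlapped each other and lay below Tjp1 in every library. The top gene was Jam3 in 5 libraries, Cldn5 in 3 and Cldn12 in 1. Relative to its mean, Nectin2 varied most over the libraries (coefficient of variation 38.2%), followed by Cldn5 (26.5%), and Jam2 least (5.80%).

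**Figure D1:**
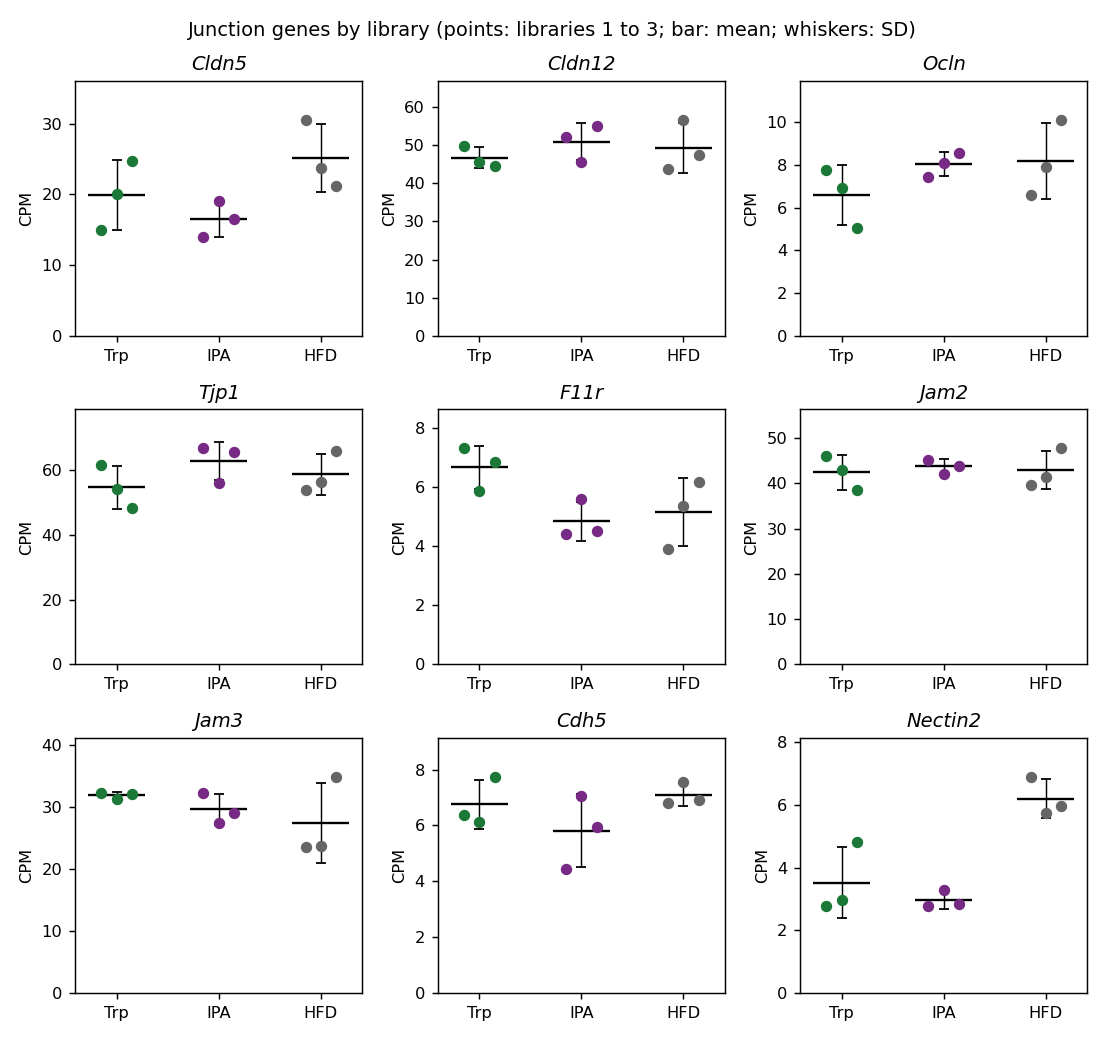
CPM of the 9 junction genes in each library, by group (Trp, IPA, HFD), with points for libraries 1 to 3, bars for the mean and whiskers for the SD. Nectin2 is the gene whose 6 Trp and IPA libraries, at 2.77 to 4.82 CPM, all lie below the 3 HFD libraries, at 5.75 to 6.90 CPM.

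The question put to the 3 groups was whether transcripts of the junctions differed where tryptophan or its metabolite was added to the high-fat diet. None of the 9 genes passed in any comparison at an adjusted p of 0.05 (edgeR quasi-likelihood test, Benjamini-Hochberg adjustment over all tested genes). Of all tested genes, 0.342% passed in Trp against HFD (0.128% as lower), 0.00535% (1 gene) in IPA against HFD and 0% in Trp against IPA. Without adjustment, 1 member had p under 0.05 in Trp against HFD (Nectin2, lower), 2 in IPA against HFD (Nectin2 and Cldn5, lower) and 1 in Trp against IPA (F11r, higher), where 11.3%, 10.4% and 4.49% of all genes did. With DESeq2's Wald test, 1 member passed in Trp against HFD, 1 in IPA against HFD and 0 in Trp against IPA, and the first and second of these were Nectin2. DESeq2 called 1.87%, 1.04% and 0.0819% of the genes it tested. Nectin2 was therefore the member on which the tools differed. The median log2 fold change of the 9 genes was -0.08 in Trp against HFD, -0.03 in IPA against HFD and 0.11 in Trp against IPA, beside 0.00, -0.01 and 0.01 over all tested genes. The Trp and IPA comparisons share the HFD libraries, so their values are set side by side and not counted as independent. The doses and routes of tryptophan and indole-3-propionic acid differ, and their parts in the Trp against IPA values cannot be told apart from that of the molecules.

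**Figure D2:**
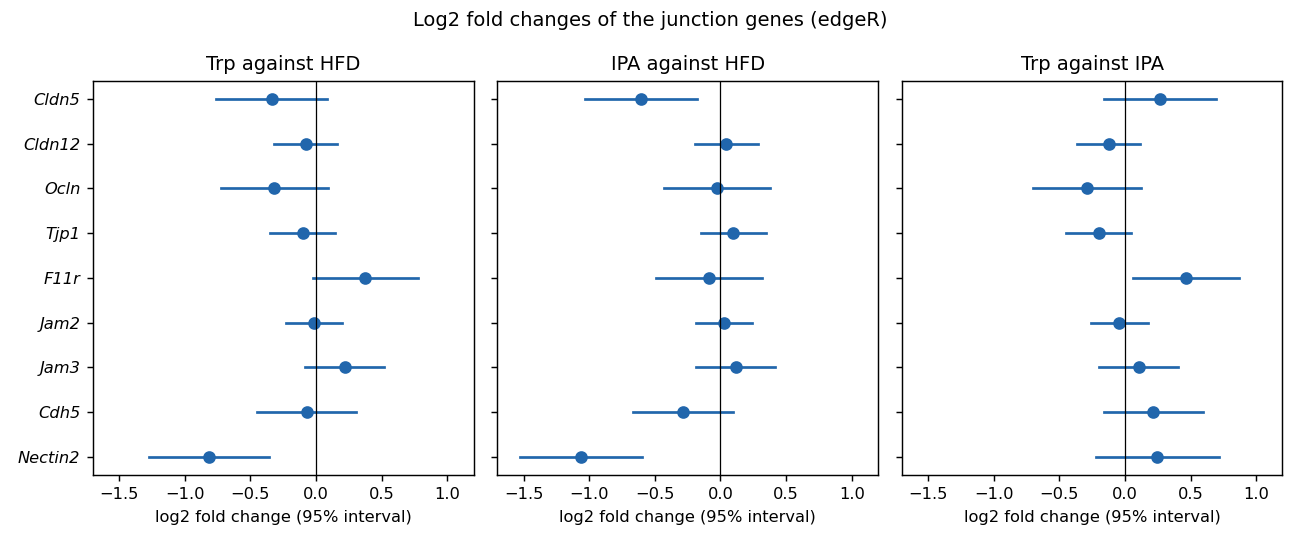
Log2 fold changes of the 9 junction genes by edgeR in 3 comparisons, with points for the estimates and lines for their 95% intervals. The intervals of Nectin2 lie below 0 in Trp against HFD (-1.27 to -0.36) and in IPA against HFD (-1.53 to -0.60), without adjustment for the number of genes.

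Nectin2, a nectin of adherens junctions that also serves as an immune ligand, had the lowest fold changes of the 9. It was measured at 2.77, 2.97 and 4.82 CPM in the Trp libraries, 2.78, 3.28 and 2.84 CPM in the IPA libraries and 6.90, 5.75 and 5.96 CPM in the HFD libraries. Every Trp and every IPA library lay below every HFD library, and Trp 3 was the nearest to HFD. The log2 fold change was -0.82 in Trp against HFD (SE 0.21, 95% interval -1.27 to -0.36) and did not pass (edgeR adjusted p = 0.169). It was -1.06 in IPA against HFD (SE 0.21, 95% interval -1.53 to -0.60), or 0.478-fold, and did not pass either (edgeR adjusted p = 0.150). The call depended on the test, since DESeq2's adjusted p was 0.0217 in Trp against HFD and 0.00177 in IPA against HFD. In the authors' deposited table Nectin2 has a log2 fold change of -1.06 for IPA over HFD with q = 0.000206 and is called down, one of 46 genes called among 15236 tested (0.302%). The authors' deposited table gives -0.82 and q = 0.0633 for Trp over HFD, with no call, where it calls 0.424% of the genes it tested and 1.53% have q under 0.05. In Trp against HFD the log2 fold change was -1.11 without Trp 3, and then passed (edgeR adjusted p = 0.0314). Nectin2 passed there in 1 of the 9 fits that left out 1 library. Those fits called 13 to 323 of all genes, beside 64 with all 9 libraries. With both HFD 3 and Trp 3 left out, a choice made after seeing the data, Nectin2 passed by edgeR in both comparisons, at -1.14 in Trp against HFD (adjusted p = 0.00705) and at -1.09 in IPA against HFD (adjusted p = 0.0109). Calls over all genes rose as well, to 775 and 247 in these comparisons, from 64 and 1 with all 9 libraries. The 95% interval of Trp against IPA ran from -0.22 to 0.71. An antisense gene on the opposite strand, Gm20512, shares exonic sequence with Nectin2 in the GENCODE M21 annotation and had 0 to 3 counts per library.

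Nectin2 was the 1 gene of the 9 with Trp values below all HFD values, as were 7.43% of all tested genes. Nectin2 and Cldn5 were the 2 of 9 with IPA values below all HFD values, as were 8.01% of all genes. F11r was the 1 with Trp values above all IPA values, as were 5.61% of all genes. No member lay on the opposite side without overlap in these comparisons.

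Cldn5, the gene of claudin-5, stood at 14.9, 20.1 and 24.7 CPM in the Trp libraries, 14.0, 19.1 and 16.5 CPM in the IPA libraries and 30.5, 23.7 and 21.2 CPM in the HFD libraries. The 3 IPA libraries were below all HFD libraries, whereas Trp 3 was above HFD 2 and HFD 3. The log2 fold change in IPA against HFD was -0.60 (SE 0.19, 95% interval -1.03 to -0.18, unadjusted p = 0.00956) and did not pass (edgeR adjusted p = 0.349). In the authors' deposited table its q for IPA over HFD is 0.0394, with 1.24% of genes at q under 0.05, and it is not called, as every gene called there has more than a 2-fold change. In Trp against HFD the log2 fold change was -0.34 (95% interval -0.76 to 0.09). It was -0.17 both without Trp 1 and without HFD 1, and -0.52 without Trp 3. Cldn12 encodes a further claudin. It ranged from 44.5 to 49.8 CPM in Trp, from 45.5 to 55.0 CPM in IPA and from 43.8 to 56.6 CPM in HFD, with overlapping groups, and its log2 intervals were -0.32 to 0.16 in Trp against HFD and -0.19 to 0.28 in IPA against HFD.

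Ocln encodes occludin, a regulator of the tight junction. It was measured at 7.77, 6.90 and 5.04 CPM in the Trp libraries, 7.43, 8.09 and 8.56 CPM in the IPA libraries and 6.57, 7.89 and 10.1 CPM in the HFD libraries. The groups overlapped, with the lowest of all values in Trp 3 and the highest in HFD 3. The log2 fold change was -0.32 in Trp against HFD (95% interval -0.72 to 0.09) and turned to 0.02 when HFD 3 and Trp 3 were both left out. It was -0.03 in IPA against HFD (95% interval -0.43 to 0.38) and 0.15 without HFD 3.

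Tjp1 encodes the scaffold ZO-1. It stood at 61.6, 54.1 and 48.4 CPM in the Trp libraries, 66.7, 56.1 and 65.5 CPM in the IPA libraries and 53.8, 56.3 and 65.9 CPM in the HFD libraries. All groups overlapped, and the log2 intervals were narrow, from -0.35 to 0.14 in Trp against HFD and from -0.15 to 0.34 in IPA against HFD.

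Of the JAM genes, F11r (JAM-A) was measured at 7.31, 5.87 and 6.83 CPM in the Trp libraries, 4.40, 5.60 and 4.52 CPM in the IPA libraries and 3.92, 5.35 and 6.18 CPM in the HFD libraries. The Trp libraries were above all IPA libraries and overlapped with HFD. The log2 fold change was 0.46 in Trp against IPA (95% interval 0.06 to 0.87, unadjusted p = 0.0276, edgeR adjusted p = 0.987), 0.38 in Trp against HFD (95% interval -0.03 to 0.78) and -0.09 in IPA against HFD, where it turned to 0.06 without HFD 3. Jam3 (JAM-C) stood at 32.2, 31.2 and 32.0 CPM in the Trp libraries, 32.3, 27.4 and 29.0 CPM in the IPA libraries and 23.6, 23.6 and 34.8 CPM in the HFD libraries. HFD 1 and HFD 2 were below all 6 Trp and IPA libraries, and HFD 3 was above all of them. The log2 fold change of Jam3 in Trp against HFD was 0.22 (edgeR adjusted p = 0.602), and without HFD 3 it was 0.43 and passed (adjusted p = 0.0478). Without HFD 3, 323 genes passed in that comparison, beside 64 with all 9 libraries. Jam3 passed there in 1 of the 9 fits that left out 1 library. Jam3 shares exonic sequence with the antisense gene Gm48796, which had 24 to 79 counts per library against 1100 to 1654 for Jam3, so reads of the pair may be mixed where strand was not used in counting. Jam2 (JAM-B) was the steadiest gene, at 38.5 to 46.2 CPM in Trp, 42.1 to 45.3 CPM in IPA and 39.8 to 47.8 CPM in HFD, with a log2 interval of -0.23 to 0.20 in Trp against HFD.

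Cdh5, the gene of VE-cadherin, is among the most endothelial genes of the 9. It was measured at 6.39, 6.13 and 7.74 CPM in the Trp libraries, 4.43, 7.05 and 5.96 CPM in the IPA libraries and 6.81, 7.57 and 6.91 CPM in the HFD libraries. IPA 1 was the lowest library and the groups overlapped. The log2 fold change was -0.29 in IPA against HFD (95% interval -0.67 to 0.09, edgeR adjusted p = 0.584) and -0.07 in Trp against HFD (95% interval -0.45 to 0.31).

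Endothelial markers had lower means alongside. The mean log2 CPM of 23 endothelial markers, none of them a member, was 3.82 ± 0.09 (SD, n = 3) in Trp, 3.64 ± 0.03 in IPA and 3.99 ± 0.10 in HFD, and their summed level ran from 462 to 513 CPM in Trp, from 437 to 442 CPM in IPA and from 490 to 568 CPM in HFD. Of the 23, 21 had a lower mean in IPA than in HFD and 15 a lower one in Trp than in HFD, and 0 passed in either comparison. Mural cell markers summed to 155 to 205 CPM in Trp, 142 to 162 CPM in IPA and 180 to 234 CPM in HFD. Blood and platelet markers, 8 of 10 tested, summed to 236 to 385 CPM in Trp, 251 to 401 CPM in IPA and 574 to 2215 CPM in HFD. Both their Trp and their IPA sums lay below HFD without overlap, whereas the endothelial and mural sums did so in IPA only. Of the 8 blood and platelet markers, 7 were lower and 0 passed in each comparison with HFD. Gp9 and Ppbp, of platelets, were at 0 counts in at least 1 library. Microglia markers summed to 365 to 469 CPM in Trp, 262 to 280 CPM in IPA and 241 to 263 CPM in HFD. All 10 were higher in Trp than in HFD and in Trp than in IPA, and none was at 0 in any library. By edgeR 4 of the 10 passed as higher in Trp against HFD, as did 0.214% of all tested genes. Among the 4 were Ctss, C1qa and C1qb (edgeR adjusted p 0.00490 to 0.0207). In the microglia sum every Trp library was above every IPA library, as for F11r, and above every HFD library, where F11r overlapped. The relation of F11r to the microglia markers was not tested. Meningeal fibroblast markers summed to 30.2 to 37.8 CPM in Trp, 20.6 to 27.2 CPM in IPA and 24.4 to 67.6 CPM in HFD, with 10 of 10 lower in IPA than in HFD and 0 passing. Striatal markers (10 of 10), choroid plexus markers (12 of 12) and ependymal markers (8 of 8) were all higher than in HFD, in Trp and in IPA. Of 12 hippocampal neuron markers, 10 were lower in Trp and 9 in IPA than in HFD. In each of these lists 0 passed, and the summed levels overlapped with HFD. The part of vessel, blood, microglial, meningeal, choroid plexus, ependymal and regional content in the differences of the junction genes was not tested. With the endothelial mean as a covariate the log2 fold change of Nectin2 was -0.55 in IPA against HFD (SE 0.47) and -0.59 in Trp against HFD (SE 0.28), and that of Cdh5 turned positive in both, at 0.21 in IPA against HFD and 0.17 in Trp against HFD. The endothelial mean was 3.62 to 3.67 in the IPA libraries, 3.75 to 3.92 in Trp and 3.88 to 4.05 in HFD. IPA and HFD do not overlap in it, so that fit cannot separate group from covariate there. No conclusion is drawn from the covariate values. Over the 9 libraries Nectin2 correlated with the endothelial mean (r = 0.86, rho = 0.75), but 0 of 36 relations between the 9 genes and 4 cell type lists passed after Benjamini-Hochberg adjustment, the smallest adjusted exact permutation p being 0.17. Centred on group means, the r of Nectin2 with the endothelial mean was 0.47.

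The libraries also differed in how counts depended on base composition. The trend of log2 CPM with the GC content of a gene's transcripts (GENCODE M21), relative to the mean of the libraries, was -0.10, 0.02 and 0.11 per 10 GC percent in the Trp libraries, -0.12, 0.05 and -0.10 in the IPA libraries and 0.17, 0.05 and -0.08 in the HFD libraries, over 12899 genes. Cldn5 (60.5% GC, above 95.5% of these genes) and Nectin2 (59.8%, above 93.9%) are at the GC-rich end, whereas Tjp1 (46.8%) and Jam2 (45.1%) are below the median of 50.9%. The trend was computed from these same counts, so GC-rich genes follow it on average and GC-poor genes run against it. The p-values of the relations below are therefore descriptive and not independent support. Cldn5 was higher in libraries with a more positive trend (r = 0.89, rho = 0.92, exact permutation adjusted p = 0.0066 over the 9 genes, n = 9, r = 0.77 without HFD 1 and IPA 1). Tjp1 (r = -0.89, rho = -0.87) and Jam2 (r = -0.89, rho = -0.83), with the same adjusted p for r, were lower there. For Nectin2 the relation did not pass by r (r = 0.63, adjusted exact permutation p = 0.0944) but passed by rho (rho = 0.77, adjusted p = 0.0385). Its r was 0.34 without HFD 1 and IPA 1. Cdh5 likewise passed by rho (rho = 0.77, adjusted exact permutation p = 0.0385) and not by r (r = 0.64, adjusted p = 0.0944). After each library was corrected for GC content and length, a choice made after seeing the data, the log2 fold change of Nectin2 was -0.79 in Trp against HFD (edgeR adjusted p = 0.0993) and -0.98 in IPA against HFD (adjusted p = 0.137). That of Cldn5 was -0.30 in Trp against HFD and -0.49 in IPA against HFD (adjusted p = 0.264), so none of these passed.

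**Figure D3:**
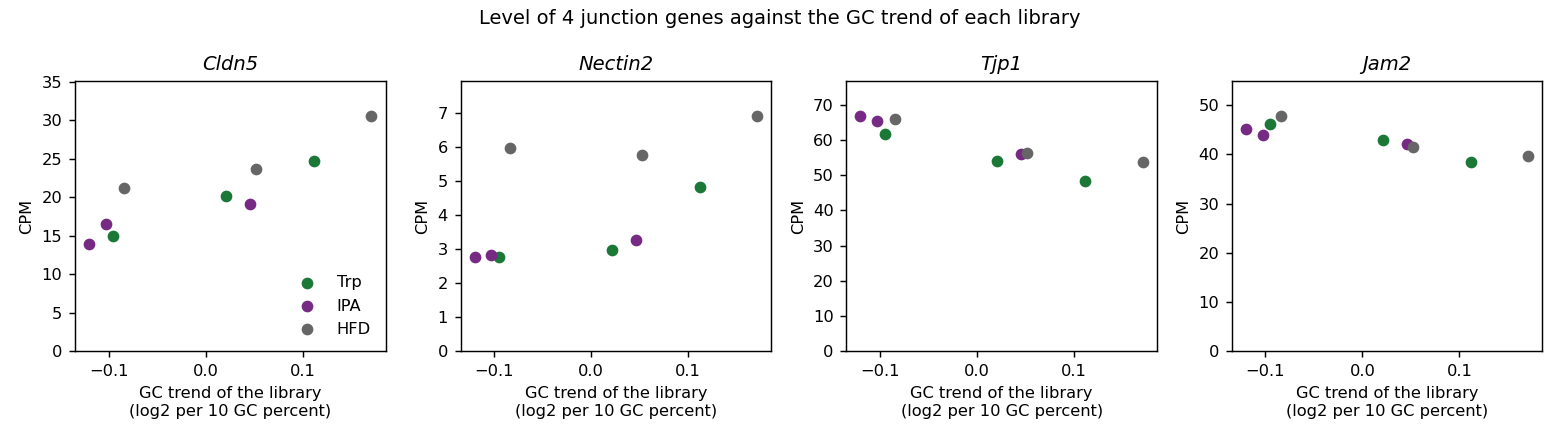
Level of Cldn5, Nectin2, Tjp1 and Jam2 in CPM against the GC trend of each library, in log2 units per 10 percent GC, with 1 point per library coloured by group. Cldn5 was higher (r = 0.89), and Tjp1 and Jam2 were lower (r = -0.89 each), in libraries with a more positive trend.

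Of the 36 pairs of members, 2 passed as varying together over the libraries by r. How often pairs of other genes did so was not computed, and all genes share the library trends above. Cldn5 and Nectin2 gave r = 0.88 and rho = 0.90 (exact permutation p adjusted over the 36 pairs 0.0367 for r and 0.0731 for rho), with r = 0.81 without HFD 1 and IPA 1, 0.82 within groups and 0.85 after GC correction. Tjp1 and Jam2 gave r = 0.89 and rho = 0.85 (adjusted p 0.0367 and 0.109), with r = 0.84 without IPA 1 and HFD 3, 0.95 within groups and 0.73 after GC correction. Between these pairs no relation passed. Cldn5 gave r = -0.70 with Tjp1 and with Jam2 (adjusted exact permutation p = 0.192 each), and -0.44 and -0.16 after GC correction. Nectin2 gave r = -0.36 with Tjp1 and -0.39 with Jam2 (adjusted exact permutation p = 0.534 each), and -0.02 and 0.17 after GC correction. The Cldn5 to Cdh5 relation, between the most endothelial members, was r = 0.71 (adjusted p = 0.179).

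The genes whose levels most resembled those of 4 members were sought over the 9 libraries among 8067 genes with at least 5 FPKM. For Cldn5 they were Tlcd3b (r = 0.97), Lysmd4 (r = 0.97) and Gga1 (r = 0.96). For Cdh5 they were Cnot9 (r = 0.92), Prkaca (r = 0.90) and Ly6e (r = 0.90). For Ocln they were Dnaaf9 (r = 0.97), Hnrnpu (r = 0.92) and Ryk (r = 0.91), and for Tjp1 Secisbp2l (r = 0.98), Zbtb33 (r = 0.97) and Ankib1 (r = 0.97). These are the top of 8067 values each, from libraries that share the trends above.

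Other junction genes were examined from a list of 51, of which 44 were tested. In Trp against HFD 2 of the 44 passed, both lower, Cxadr and Nectin1. In IPA against HFD and in Trp against IPA 0 passed by edgeR. Of all tested genes 0.342%, 0.00535% and 0% passed in these comparisons. Without adjustment 10 of 44 had p under 0.05 in Trp against HFD (4 higher, 6 lower), 9 in IPA against HFD (2 higher, 7 lower) and 2 in Trp against IPA (both higher). The shares over all genes were 11.3%, 10.4% and 4.49%. DESeq2 called 3, 3 and 0 in the same order, beside 1.87%, 1.04% and 0.0819% of the genes it tested. Of the 44, 9 were lower and 3 higher without overlap in Trp against HFD, 11 lower and 1 higher in IPA against HFD, and 1 lower and 4 higher in Trp against IPA. Of all genes, 7.43% were lower and 8.06% higher in the first, 8.01% and 7.19% in the second, and 5.55% and 5.61% in the third. The median log2 fold change of the 44 was -0.04, -0.03 and 0.00 in that order. The lower values included nectins and related immunoglobulin proteins, of which 7 of 9 had a negative log2 fold change in each comparison with HFD. Of the 18690 tested genes, 9435 had one in Trp against HFD and 9542 in IPA against HFD. The medians of the 9 nectins and related proteins were -0.14 in Trp against HFD and -0.19 in IPA against HFD.

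Cxadr encodes the coxsackievirus and adenovirus receptor, an adhesion protein of the tight junction. It stood at 13.9, 13.7 and 13.0 CPM in the Trp libraries, 16.9, 13.6 and 15.6 CPM in the IPA libraries and 19.4, 23.0 and 20.3 CPM in the HFD libraries. All Trp and IPA libraries were below all HFD libraries. It fell by 0.63 on the log2 scale in Trp against HFD (SE 0.11, edgeR adjusted p = 0.0362) and its value in IPA against HFD was -0.44 (adjusted p = 0.250). Nectin1, a nectin of neuronal and epithelial junctions, stood at 19.1 to 19.8 CPM in Trp, 19.3 to 23.5 CPM in IPA and 25.6 to 33.8 CPM in HFD, again without overlap. It fell by 0.62 on the log2 scale in Trp against HFD (SE 0.12, edgeR adjusted p = 0.0451), and its value in IPA against HFD was -0.51 (adjusted p = 0.200). Nectin3, a nectin that pairs with Nectin1, had log2 fold changes of -0.57 in Trp against HFD (adjusted p = 0.104) and -0.58 in IPA against HFD (adjusted p = 0.194), with 14.0 to 16.5 CPM in Trp, 13.2 to 15.7 CPM in IPA and 18.6 to 24.8 CPM in HFD. Nectin4 overlapped in all groups. Nectin1, Nectin2, Nectin3 and Cxadr had no Trp or IPA library as high as any HFD library. The same held for Ildr2, Ctnnb1, Ptprb and Igsf5, which makes 7 of the 44 other junction genes and 1 of the 9 members, and it held for 3.08% of all tested genes. Pard3 was the 1 of the 44 with every Trp and IPA library above every HFD library, as were 2.72% of all tested genes. Both calls were lost with edgeR when any library other than HFD 3 was left out (adjusted p 0.0511 to 0.210 for Cxadr and 0.0661 to 0.250 for Nectin1), and were kept without HFD 3 (0.0183 and 0.00561). Nectin1 is GC-rich (61.6%), and its log2 fold change in Trp against HFD after GC correction was -0.54 (adjusted p = 0.0134). Cxadr (46.3%) gave -0.67 (adjusted p = 0.0163).

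**Figure D4:**
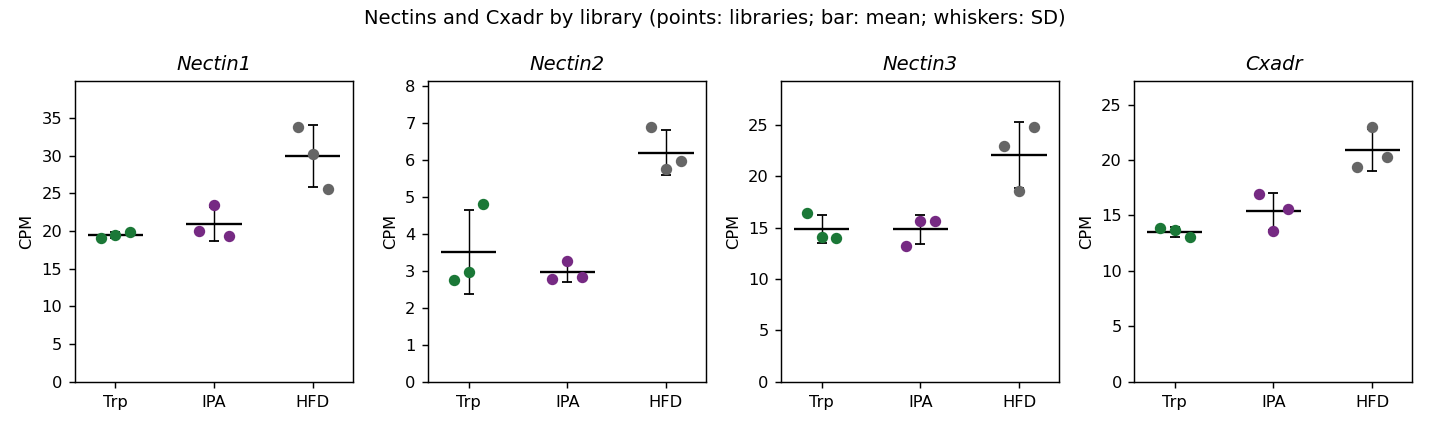
CPM of Nectin1, Nectin2, Nectin3 and Cxadr in each library, by group (Trp, IPA, HFD), with points for libraries, bars for the mean and whiskers for the SD. For each gene all Trp and IPA libraries lie below all HFD libraries, as for Nectin1 with 19.1 to 23.5 CPM in Trp and IPA and 25.6 to 33.8 CPM in HFD.

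Among the other classes, none of the 14 tested claudin, MARVEL and angulin genes, the 12 scaffold genes and the 9 cadherin and catenin genes passed by edgeR in either comparison against HFD. DESeq2 called 1 of them, Pard3 in IPA against HFD (0.50, DESeq2 adjusted p = 0.0170). Pard3, a scaffold of cell polarity, had the highest scaffold value in IPA against HFD, 0.50 (SE 0.12, unadjusted p = 0.000888, edgeR adjusted p = 0.204), with 18.6 to 25.2 CPM in Trp, 22.8 to 25.3 CPM in IPA and 16.3 to 18.0 CPM in HFD. In Trp against IPA the 4 genes with the smallest unadjusted p were Cgn (0.60), Ildr1 (1.21), Cldn19 (0.74) and Cxadr (-0.19), each with an adjusted p of 0.987. Ildr1 and Cldn19 rested on few reads, 4 to 28 and 7 to 37 counts per library.

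**Figure D5:**
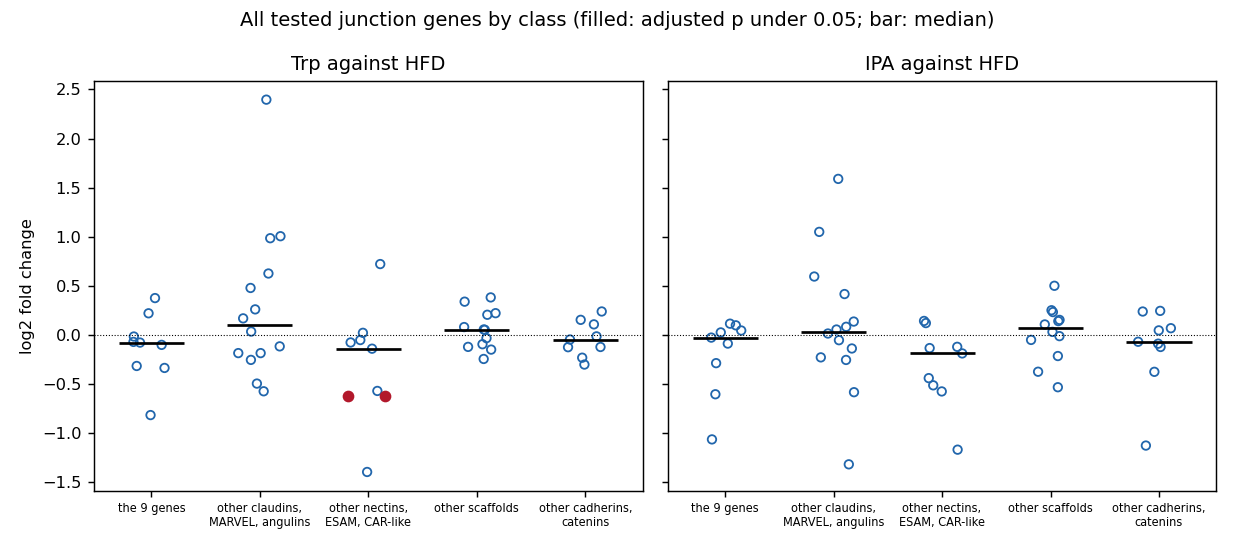
Log2 fold changes by edgeR of all tested junction genes by class, in Trp against HFD (left) and IPA against HFD (right), with 1 point per gene, bars for the class median and filled points for adjusted p under 0.05. The 2 filled points, Cxadr (-0.63) and Nectin1 (-0.62), are in the class of nectins and related immunoglobulin proteins in Trp against HFD.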

How the data were processed

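RNA of 9 libraries was captured on oligo(dT) beads and amplified by PCR, per the labels' protocols. The authors deposited 1 table with raw counts and FPKM per gene and library, per the file headers, together with their own log2 fold change, p-value, q-value and call for each comparison with HFD. Per the submitters' processing notes StringTie 2.1.3b and mm10 were used, but the gene starts in the table differ from that build, so its coordinates were not printed. Aligner, counting tool and strand setting: not given in the sources used here.

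Deposited counts were tested in R 4.3.3 with edgeR 4.0.16 (filterByExpr at a minimum count of 10, TMM scaling, robust quasi-likelihood fit to all 9 libraries with 1 mean per group, no covariate), two-sided, with adjustment over 18690 genes and calls at 0.05. CPM were computed from these counts, and log2 CPM used a prior count of 2. Alternatives were DESeq2 1.42.0, other scaling and filters, limma 3.58.1 on log2(FPKM + 0.5) and log2(FPKM + 1), an endothelial covariate, a replicate block and leaving out each library. GC correction and leaving out HFD 3 with Trp 3 were chosen after seeing the data. The 9 genes, the lists and the tests were chosen with earlier results of these data known. Named are all members, per comparison the other junction genes that passed or otherwise the 4 with the smallest p, and the 3 genes most like Cldn5, Cdh5, Ocln and Tjp1; Nectin3, Nectin4, Ildr2, Igsf5, Ctnnb1 and Ptprb were also named after their values were seen. In simulated data edgeR recovered 50% of 1.5-fold and 85% of 2-fold changes in Trp against HFD, 34% and 76% in IPA against HFD, and 42% and 78% in Trp against IPA. The simulated comparisons gave 176, 153 and 155 calls, of which 17, 10 and 7 were false. The measured data gave 64, 1 and 0 calls, which makes the adjusted threshold stricter there. These percentages therefore do not apply to the 9 genes. An exact test of 3 against 3 libraries cannot give p below 0.1.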

Additional observations from a re-analysis of the deposited data

How the results depend on the processing

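Of 567 fold changes of the 9 genes recomputed under 21 alternatives, 512 kept their direction and side of the threshold, 7 passed only under the alternative and 48 changed sign. The fold changes that turned sign ran from -0.316 (Ocln in Trp against HFD) to 0.248 (Nectin2 in Trp against IPA) in the fit to all 9 libraries, and none of them had passed there. With limma on log2(FPKM + 0.5), with or without its filter, Trp against HFD gave 0.011 for Cldn12, 0.012 for Tjp1, 0.058 for Jam2 and 0.002 for Cdh5, IPA against HFD gave 0.019 for Ocln, and Trp against IPA gave 0.04 for Jam2. With log2(FPKM + 1) Jam2 gave 0.056 in Trp against HFD and 0.038 in Trp against IPA, Ocln gave 0.014 in IPA against HFD, and Cldn12, Tjp1 and Cdh5 gave 0.011, 0.012 and 0.002 again. With the endothelial covariate, Trp against HFD gave 0.173 for Cdh5, IPA against HFD gave -0.063 for Tjp1, 0.576 for F11r, -0.05 for Jam2 and 0.213 for Cdh5, and Trp against IPA gave -0.028 for Jam3, -0.039 for Cdh5 and -0.038 for Nectin2. Without HFD 3 and Trp 3, Trp against HFD gave 0.021 for Ocln, 0.072 for Tjp1 and 0.133 for Jam2, IPA against HFD gave 0.15 for Ocln and 0.062 for F11r, and Trp against IPA gave 0.026 for Jam2 and -0.048 for Nectin2. With GC correction IPA against HFD gave -0.038 for Cldn12 and -0.043 for Jam2, and with the replicate block added -0.036 and -0.043. In FPKM, r with the choroid plexus and oligodendrocyte lists turned to -0.057 and -0.217 for Cldn12. The cause of these changes was not tested.

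Calls were less stable. In Trp against HFD, 64 genes passed by edgeR, 309 with DESeq2, 97 without the filter, 18 with limma and no filter, 8 with only the 6 libraries compared, 0 with the endothelial covariate and 775 without HFD 3 and Trp 3. Of the 9 genes, 1 passed with DESeq2 and 2 without HFD 3 and Trp 3, and of the other junction genes 0 passed with limma at either pseudocount or without filter, with only the 6 libraries or with the covariate, and 5 without HFD 3 and Trp 3. In IPA against HFD, 1 gene passed by edgeR, 168 with DESeq2, 6 without the filter, 2 with only the 6 libraries, 0 with the covariate and 247 without HFD 3 and Trp 3. There, 1 of the 9 genes passed with DESeq2 and 1 without those 2 libraries, and of the other junction genes 3 and 2. In Trp against IPA, 0 genes passed by edgeR (840 at an unadjusted p under 0.05), 15 with DESeq2, 3 without the filter, 2 with limma at either pseudocount, 1 with limma and no filter and 2 without HFD 3 and Trp 3.

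Leaving out 1 library at a time gave 13 to 323 genes in Trp against HFD, 0 to 52 in IPA against HFD and 0 to 1 in Trp against IPA, with the highest of the first 2 without HFD 3. Of the 9 genes 0 to 1 passed in Trp against HFD and 0 in the other comparisons, and of the other junction genes 0 to 3 and 0 to 1 in Trp and IPA against HFD. Fold changes that turned sign ran from -0.156 to 0.034 (Cldn12) and from -0.08 to 0.066 (Jam2) in Trp against HFD, from -0.163 to 0.15 (Ocln), -0.033 to 0.157 (Cldn12), -0.028 to 0.107 (Jam2) and -0.251 to 0.062 (F11r) in IPA against HFD, and from -0.108 to 0.023 (Jam2) and -0.05 to 0.395 (Nectin2) in Trp against IPA.

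The labels do not say whether the replicate numbers pair the mice. Deviations of same-numbered libraries from their group means correlated at -0.196 to 0.048, and those of differently numbered libraries at -0.145 to 0.256. These values do not settle whether mice shared a litter, batch or day. With the replicate block 23 genes passed in Trp against HFD and 0 in IPA against HFD, with 0 other junction genes. With the block and GC correction these were 38, 0 and 1 (Nectin1). In IPA against HFD the block gave -1.07 for Nectin2 (edgeR adjusted p = 0.323).

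With 3 libraries per group, a log2 fold change of Nectin2 or Cldn5 is known to about 0.2 (SE), and of Jam2 to about 0.1. Members at 1 to 2 FPKM had 111 to 425 counts per library.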
